A study of Mus musculus with 12 samples.

Results

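The visual chromophore is regenerated outside the photoreceptor as well as within it, and 8 genes of that supporting side, or used as marks of the cells that do it, were followed here: Rpe65, Rlbp1, Rgr, Rdh5, Lrat, Rrh, Ttr and Best1. They were picked by name from genes used mainly by retinal pigment epithelium or Mueller glia, with earlier results of these data known, and the rule itself uses no measured value. Every probe carrying one of these symbols was taken, which gave 12 of the 45281 probes and 8 of the 19057 genes on the array. Signals were measured on 12 bead arrays of retina from 10-day-old (P10) C57bl6/J mice, with 4 genotypes of 3 pools each. E168d2neo/d2neo mice were homozygous for a knock-in 2-bp deletion that shifts the reading frame of Crx and truncates its activation region, R90Wneo/Wneo mice were homozygous for a knock-in substitution in the CRX homeodomain, Crx-/- mice were the knockout, and WT mice carried no mutation. Both knock-in lines kept a neo cassette in an intron, which by the study's account lowers expression of the mutant allele, and their embryonic stem cells came from another strain before backcrossing. The genotypes follow the sample labels; the column names of the signal table leave out neo, a spelling that in the study stands for the lines without the cassette, and were matched to the samples by genotype and letter. Each pool held 4 retinas of 1 male and 1 female, taken out of the eye cup, so a p-value here measures the spread between pools.

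In the visual cycle, light turns 11-cis retinal into the all-trans form, and the pigment epithelium turns it back. LRAT makes the retinyl ester, RPE65 isomerizes and cleaves it to 11-cis retinol, RDH5 oxidizes that to 11-cis retinal, and RLBP1 (CRALBP) carries the 11-cis forms in both pigment epithelium and Mueller glia. RGR and RRH (peropsin) are opsin-like proteins that bind all-trans retinal, TTR is the carrier of thyroxine and of the plasma retinol-binding protein, and BEST1 is a chloride channel of the basolateral membrane. CRX acts in photoreceptors, the related OTX2 and the factor MITF act in pigment epithelium, and retina lifted out of the eye cup can carry some epithelium with it.

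Promoter sequences from RefSeq (GRCm38.p6) were searched on both strands for 3 short strings. The core bound by OTX and CRX factors was written TAATCC, which reads on the opposite strand as GGATTA. For MITF the M-box core was written CATGTG, which reads on the opposite strand as CACATG. The palindrome CACGTG, the other E-box MITF can bind, was the last. None of these letter strings overlaps another in the windows shown. The 4 windows below are those of the members that the measurements turn on, including the pair that moved together (Rgr and Rdh5), the one that did not follow them (Rlbp1) and the one closest to the detection limit (Rpe65). Each has 300 bases around the tabulated start, printed 5′ to 3′ on the strand of the gene, with matches in capitals. Rgr lies on chr14:37048965-37049264, minus strand, Rdh5 on chr10:128919248-128919547, minus strand, Rlbp1 on chr7:79386978-79387277, minus strand, and Rpe65 on chr3:159598931-159599230, plus strand.
Rgr: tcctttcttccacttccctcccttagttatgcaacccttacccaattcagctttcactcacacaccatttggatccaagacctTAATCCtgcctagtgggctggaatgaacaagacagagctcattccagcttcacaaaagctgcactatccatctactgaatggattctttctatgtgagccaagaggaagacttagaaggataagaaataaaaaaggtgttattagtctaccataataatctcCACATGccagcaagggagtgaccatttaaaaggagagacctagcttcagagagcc
Rdh5: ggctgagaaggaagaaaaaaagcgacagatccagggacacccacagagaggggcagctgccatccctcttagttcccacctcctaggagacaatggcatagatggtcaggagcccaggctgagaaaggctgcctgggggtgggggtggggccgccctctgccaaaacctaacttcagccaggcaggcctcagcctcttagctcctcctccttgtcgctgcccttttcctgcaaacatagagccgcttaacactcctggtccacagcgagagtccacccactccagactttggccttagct
Rlbp1: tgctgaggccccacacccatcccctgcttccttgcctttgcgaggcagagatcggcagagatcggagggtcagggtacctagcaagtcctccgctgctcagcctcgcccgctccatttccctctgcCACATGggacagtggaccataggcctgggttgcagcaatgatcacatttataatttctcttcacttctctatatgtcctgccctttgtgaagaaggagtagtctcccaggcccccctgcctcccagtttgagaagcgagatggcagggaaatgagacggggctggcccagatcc
Rpe65: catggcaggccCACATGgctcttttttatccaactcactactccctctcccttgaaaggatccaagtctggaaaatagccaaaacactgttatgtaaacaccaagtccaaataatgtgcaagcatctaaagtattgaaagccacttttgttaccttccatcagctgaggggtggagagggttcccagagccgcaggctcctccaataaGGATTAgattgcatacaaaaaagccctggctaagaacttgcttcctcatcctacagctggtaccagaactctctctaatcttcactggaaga
TAATCC or its complement was found in 3 of the 7 members with a tabulated promoter (Best1, Rgr and Rpe65), against 7.06% of all 32851 promoters. CATGTG or its complement was found in 3 of 7 (Rgr, Rlbp1 and Rpe65), against 14.2% of all. CACGTG was in 0 of 7, against 7.15% of all. Rgr and Rpe65 held both cores, and the windows of Rdh5, Lrat and Rrh held none of the strings searched. The windows of Rdh5 and Rlbp1 lie wholly inside the gene spans given below and do not reach the outer start of the gene. Sequence before that outer start was therefore not searched for these genes. A match describes the letters of the window and does not show a bound site.

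The mean background-subtracted signal per array ranged over 176 to 394 arbitrary units, with the dimmest being E168d2neo/d2neo replicate 1 (183) and WT replicate 1 (176), and 32.7 to 41.3% of probes were detected (detection p under 0.05) on an array. In the table's column names, WT replicate 1 carries a suffix that no other array has, and R90Wneo/Wneo replicate 2 differs from the other 2 pools of its genotype in spelling and in its leading number; what these marks stand for is not given in the sources used here, and their part in the results was not tested. Replicates of a genotype correlated at r = 0.94 to 0.99 over the 12271 probes detected on every array. The probe for Crx itself was detected on all 12 arrays, at 13.66, 14.05 and 13.995 in E168d2neo/d2neo, 13.57, 13.43 and 13.43 in R90Wneo/Wneo, 12.99, 12.83 and 13.04 in Crx-/- and 13.65, 13.44 and 13.44 in WT. It was lowest in the 3 knockout pools, but the place of the probe relative to the deleted part was not examined, so it is no check of that genotype. All levels below are log2 of the quantile-normalized signal with a floor of 16 (4 on the log2 scale). Levels of different probes are not set against each other, because a probe's brightness depends on its sequence.

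Of the 12 member probes, 8 probes of 6 genes were detected on at least 1 array and were tested. Rgr (chr14:37034909-37049014) had 3 probes, Rdh5 (chr10:128913588-128920037) and Rrh (chr3:129808575-129822505) had 2 each, and the others had 1. Lrat (chr3:82892582-82903974), the retinol acyltransferase, and Best1 (chr19:9985172-10001633), the chloride channel, were detected on 0 of 12 arrays. Their background-subtracted signals ran between -29.2 and 19.1 for Lrat and between 3.28 and 25.3 for Best1, with lowest detection p-values of 0.124 and 0.0652. A second Rdh5 probe and a second Rrh probe were also detected on 0 arrays. These 4 probes therefore have no level in any genotype, which is not the same as the gene being off.

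RPE65 is the isomerohydrolase of the cycle, and Rpe65 (chr3:159599075-159625307) was at the edge of detection. Its probe was detected on 5 of 12 arrays, namely E168d2neo/d2neo replicate 3, R90Wneo/Wneo replicate 3, Crx-/- replicates 2 and 3 and WT replicate 1. Levels were 4.0, 4.28 and 5.02 in E168d2neo/d2neo, 4.43, 4.51 and 5.56 in R90Wneo/Wneo, 4.0, 4.88 and 5.14 in Crx-/- and 6.07, 4.67 and 4.86 in WT. The highest single value belonged to WT replicate 1, and all 4 genotypes overlapped. E168d2neo/d2neo minus WT was -0.77 (SE 0.45, limma adjusted p = 0.372), R90Wneo/Wneo minus WT -0.37 (adjusted p = 0.830), and Crx-/- minus WT -0.53 (adjusted p = 0.548). Most of these values are below detection and set no order of the genotypes.

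Rdh5, the 11-cis retinol dehydrogenase, gave the lowest adjusted p of the 8 probes in R90Wneo/Wneo against WT. Its levels were 9.82, 9.08 and 9.51 in E168d2neo/d2neo, 8.45, 7.76 and 9.22 in R90Wneo/Wneo, 9.47, 9.86 and 9.79 in Crx-/- and 10.73, 9.72 and 9.63 in WT. All 3 R90Wneo/Wneo arrays lay below all 3 WT arrays and below all 3 Crx-/- arrays, while the other 2 mutants overlapped WT. Genotype means were 9.47 ± 0.37 in E168d2neo/d2neo, 8.48 ± 0.73 in R90Wneo/Wneo, 9.71 ± 0.21 in Crx-/- and 10.03 ± 0.61 in WT (SD, n = 3 each). R90Wneo/Wneo minus WT was -1.55 (SE 0.38, 95% interval -2.38 to -0.71), or 2.93-fold lower, with a limma adjusted p of 0.0833 over all tested probes, so it missed the threshold of 0.05. It passed in 2 alternatives, with another background correction (normexp, -1.51, adjusted p = 0.0393) and without R90Wneo/Wneo replicate 3 (-1.92, adjusted p = 0.0494). With R90Wneo/Wneo replicate 2 and WT replicate 1 both left out, a setting chosen after seeing the data, it was -0.84 (adjusted p = 0.337). E168d2neo/d2neo minus WT was -0.56 (adjusted p = 0.440), and Crx-/- minus WT was -0.32 (adjusted p = 0.677).

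The retinal G protein-coupled receptor gene Rgr was read by 3 probes, detected on all arrays, which ranked the arrays much alike. The brightest gave 10.64, 10.42 and 10.74 in E168d2neo/d2neo, 9.55, 8.56 and 10.55 in R90Wneo/Wneo, 10.67, 11.12 and 11.34 in Crx-/- and 11.13, 10.45 and 10.41 in WT. Replicates 1 and 2 of R90Wneo/Wneo lay below every other array, whereas its replicate 3 lay among the WT arrays. The means were 10.60 ± 0.16 in E168d2neo/d2neo, 9.55 ± 0.99 in R90Wneo/Wneo, 11.04 ± 0.34 in Crx-/- and 10.66 ± 0.40 in WT (SD, n = 3 each). R90Wneo/Wneo minus WT was -1.11 (SE 0.41, adjusted p = 0.316), and the other 2 probes gave -1.13 and -0.97 (adjusted p = 0.351 and 0.409). Crx-/- minus WT was 0.38 (adjusted p = 0.646) and E168d2neo/d2neo minus WT was -0.06 (adjusted p = 0.971), where the 3 probes differ in sign at -0.06, -0.13 and 0.09. Without R90Wneo/Wneo replicate 2 and WT replicate 1, the R90Wneo/Wneo difference of the brightest probe was -0.38 (adjusted p = 0.792).

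Rrh, which encodes the epithelial opsin-like protein peropsin, varied least. It had 7.83, 7.72 and 7.99 in E168d2neo/d2neo, 7.64, 7.33 and 7.56 in R90Wneo/Wneo, 7.93, 8.16 and 7.93 in Crx-/- and 7.85, 7.62 and 7.71 in WT. The highest and lowest of the 12 arrays were only 1.78-fold apart, and again R90Wneo/Wneo replicate 2 was the lowest. All 3 Crx-/- arrays were above all 3 WT arrays, by 0.28 on average (SE 0.15, adjusted p = 0.326), and R90Wneo/Wneo minus WT was -0.22 (adjusted p = 0.655). E168d2neo/d2neo minus WT was 0.12 (adjusted p = 0.70).

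TTR is the transport protein made in bulk by choroid plexus and pigment epithelium, and Ttr (chr18:20664209-20674326) had the widest range of the members. Levels were 10.12, 10.81 and 11.10 in E168d2neo/d2neo, 9.63, 7.85 and 9.85 in R90Wneo/Wneo, 10.41, 10.68 and 10.69 in Crx-/- and 11.44, 10.07 and 10.20 in WT. From R90Wneo/Wneo replicate 2, the lowest, to WT replicate 1, the highest, the range was 12.1-fold, and R90Wneo/Wneo overlapped none of the other 3 genotypes. Means were 10.68 ± 0.50 in E168d2neo/d2neo, 9.11 ± 1.10 in R90Wneo/Wneo, 10.59 ± 0.16 in Crx-/- and 10.57 ± 0.76 in WT (SD, n = 3 each). R90Wneo/Wneo minus WT was -1.46 (SE 0.51, adjusted p = 0.276), and without the 2 arrays named above it was -0.39 (adjusted p = 0.725). E168d2neo/d2neo differed from WT by 0.11 (adjusted p = 0.948), and Crx-/- by 0.02 (adjusted p = 1).

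The carrier gene Rlbp1 (chr7:79374865-79392250), the member most shared with Mueller glia, behaved differently from the rest. It gave 9.30, 10.72 and 10.84 in E168d2neo/d2neo, 10.31, 10.60 and 10.79 in R90Wneo/Wneo, 10.51, 10.10 and 10.33 in Crx-/- and 10.32, 10.65 and 10.71 in WT. Apart from E168d2neo/d2neo replicate 1, the arrays lay close together, and R90Wneo/Wneo replicate 2 was not low. R90Wneo/Wneo minus WT was 0.01 (SE 0.35, 95% interval -0.76 to 0.77), E168d2neo/d2neo minus WT was -0.27 (adjusted p = 0.70) and Crx-/- minus WT was -0.25 (adjusted p = 0.735). Without E168d2neo/d2neo replicate 1 the difference of that genotype from WT turned to 0.22.

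**Figure D1:**
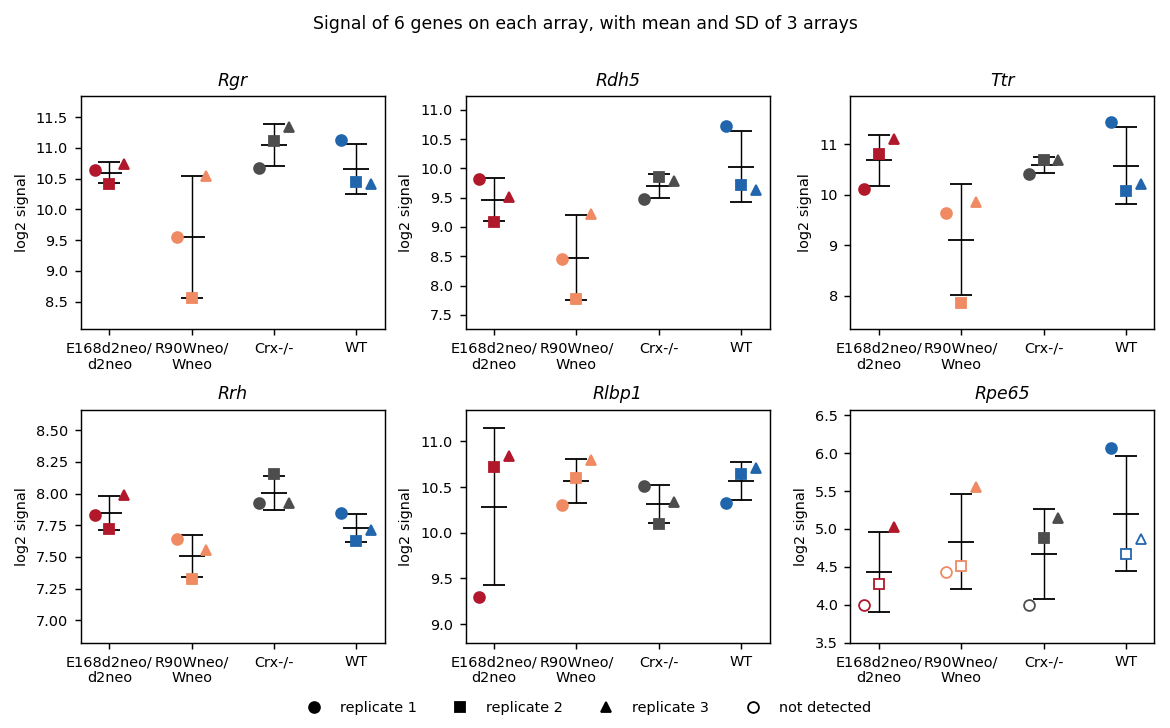
Each panel shows 1 gene, with log2 signal on the vertical axis and the 4 genotypes on the horizontal axis. Points are arrays (shape gives the replicate, open points are not detected) and bars give the mean and SD of 3 arrays; R90Wneo/Wneo replicate 2 is the lowest point for Rgr, Rdh5, Ttr and Rrh, and WT replicate 1 is the highest for Rdh5, Ttr and Rpe65.

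Across the 3 comparisons with WT, the 8 probes gave 0 calls at an adjusted p of at most 0.05 with a change of at least 2-fold. In E168d2neo/d2neo against WT, 0 of 8 member probes were called, where 3.79% of the 24311 tested probes were called (2.24% lower, 1.55% higher). In R90Wneo/Wneo against WT, 0 of 8 were called, where 0.979% of all were (0.65% lower, 0.329% higher). In Crx-/- against WT, 0 of 8 were called, where 3.89% of all were (2.34% lower, 1.55% higher). With shares of this size, few or no calls among 8 probes is near the background.

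Before adjustment, limma gave p under 0.05 for 0 of 8 probes when E168d2neo/d2neo was set against WT, for 5 of 8 when R90Wneo/Wneo was and for 0 of 8 when Crx-/- was. The 5 probes are those of Rdh5, Ttr and the 3 of Rgr, which share a gene and are not separate evidence. The share of all tested probes under that p was not computed for any comparison, so such counts have no background beside them. With 1 probe a gene, the 6 tested members had a median difference from WT of -0.17 for E168d2neo/d2neo, -0.74 for R90Wneo/Wneo and -0.11 for Crx-/-, against 0.01 over all tested probes in each. Over the 8 probes, where Rgr counts 3 times, the medians were -0.10, -1.04 and 0.13 in the same order, so the sign for Crx-/- depends on that weighting. Groups did not overlap for 0, 2 and 1 of the 8 probes in these comparisons, where 22.2%, 18% and 29.6% of all tested probes did not overlap. Either median of the R90Wneo/Wneo comparison is below that of all probes while no single probe passed the test, and the share of probes whose arrays separated was near that of all probes.

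**Figure D2:**
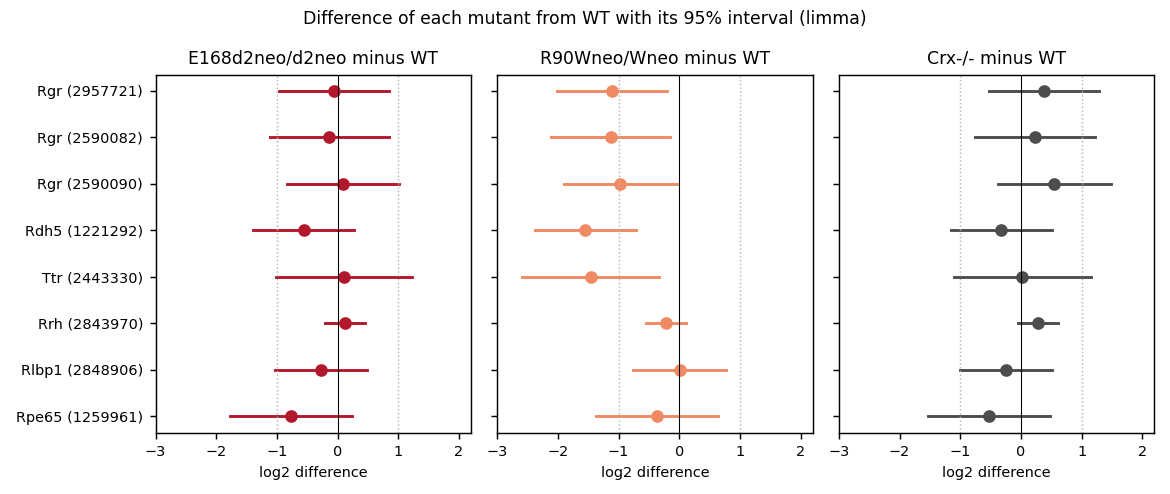
Points are log2 differences of each mutant from WT for the 8 tested probes (probe number in brackets), and lines are 95% intervals from limma. In R90Wneo/Wneo the 3 Rgr probes, Rdh5 and Ttr lie near or below -1 while Rrh, Rlbp1 and Rpe65 have intervals that include 0, and in E168d2neo/d2neo and Crx-/- every interval includes 0.

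The mutants were also set against each other. In R90Wneo/Wneo against Crx-/-, 0 of 8 member probes were called, where 0.378% of all tested probes were, 6 of 8 had an unadjusted p under 0.05 by limma, and 5 of 8 did not overlap, against 20.7% of all. The 6 probes include all 3 of Rgr, and Rgr probes are also among the 5, so these are not counts of separate genes. The differences were -1.49 for the brightest Rgr probe (adjusted p = 0.195), -1.23 for Rdh5 (adjusted p = 0.247), -1.48 for Ttr (adjusted p = 0.312) and -0.50 for Rrh (adjusted p = 0.237). The median was -0.86 over the 6 member genes and -1.30 over the 8 probes, against 0 over all probes. The WT arrays enter only through the shared normalization, the choice of tested probes and the estimate of spread. Without R90Wneo/Wneo replicate 2 the differences were -0.99, -0.87 and -0.85 for Rgr, Rdh5 and Ttr, so the mean of the other 2 pools kept the sign, with adjusted p-values of 0.429, 0.612 and 0.667.

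In E168d2neo/d2neo against R90Wneo/Wneo, 0 of 8 were called, where 0.522% of all were, and 6 of 8 had an unadjusted p under 0.05, again with all 3 Rgr probes among them. Ttr differed by 1.57 (adjusted p = 0.349), Rgr by 1.05 (adjusted p = 0.485) and Rdh5 by 0.99 (adjusted p = 0.466). Groups did not overlap for 2 of 8 probes (Ttr and Rrh), against 12.4% of all. In E168d2neo/d2neo against Crx-/-, 0 of 8 were called, where 0.531% of all were, 0 of 8 had an unadjusted p under 0.05, and 0 of 8 did not overlap, against 14% of all. The largest size there was -0.46, in an Rgr probe (adjusted p = 0.769). The comparisons share arrays, so R90Wneo/Wneo standing low wherever it enters is 1 observation on the same 3 pools.

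Pools of a genotype differed more in these genes than in most. Over the 12271 probes detected on all arrays, the SD within genotypes had a median of 0.22 and quartiles of 0.16 and 0.31. Rdh5 had 0.52 (97.1st percentile), the 3 Rgr probes had 0.57, 0.62 and 0.59 (98.3rd, 98.9th and 98.6th percentile), Ttr had 0.72 (99.6th percentile) and Rlbp1 had 0.47 (95.1st percentile). Rrh had 0.14 (16.8th percentile) and was the exception. For Rlbp1 the spread came from 1 array, E168d2neo/d2neo replicate 1, whereas for Rdh5, Rgr and Ttr it was largest within R90Wneo/Wneo, where the 3 pools spanned 2.74-fold, 3.97-fold and 4.0-fold.

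The same array was low in most of them. R90Wneo/Wneo replicate 2 was the lowest of the 12 for 4 of the 5 members detected on every array, although it was the lowest for 4.85% of all 12271 such probes. It was also the lowest for 4 of 6 further pigment epithelium genes (Slc16a8, a lactate transporter of the basolateral membrane, Clic6, Trf and Stra6, the retinol uptake receptor), for 2 of 3 melanin genes (Pmel and Dct) and for 0 of 12 Mueller glia genes. The remaining epithelium genes, Wfdc1 and Serpinf1, did not have it lowest. Wfdc1 had a mean of 8.66 in R90Wneo/Wneo and 8.24 in WT, and Serpinf1 had 9.24 and 9.35. WT replicate 1 was the highest for 2 of 5 members, 2 of 3 melanin genes and 4 of 5 endothelium genes, but for 1 of the 6 further pigment epithelium genes, where it was the highest for 14.3% of all probes. That array had 11.97 for Pmel, the melanosome fibril protein, where the other WT arrays had 9.90 and 9.93.

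The summed linear signal of whole marker lists is given by pool. For the 6 tested members it was 4480, 5625 and 6756 in E168d2neo/d2neo, 3384, 2562 and 5024 in R90Wneo/Wneo, 5404, 6204 and 6689 in Crx-/- and 8297, 5140 and 5247 in WT. For 13 further pigment epithelium genes of 17 listed it was 3136, 1875 and 2732 in E168d2neo/d2neo, 2088, 1634 and 2774 in R90Wneo/Wneo, 2299, 2782 and 3351 in Crx-/- and 3715, 2942 and 2452 in WT. For 7 melanin genes of 9, it was 2178, 1843 and 2324 in E168d2neo/d2neo, 1718, 893 and 2216 in R90Wneo/Wneo, 2725, 3618 and 3703 in Crx-/- and 6929, 2337 and 2130 in WT. R90Wneo/Wneo replicate 2 had the lowest sum and WT replicate 1 the highest in each of these 3 lists. Pmel and Dct made up most of the melanin sum, at 345 and 398 on R90Wneo/Wneo replicate 2 and 4007 and 1858 on WT replicate 1. Among defining genes, Tyr and Gpr143 of the melanin list and Lrat and Best1 of the epithelium were not detected on any array.

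The Mueller glia and lens lists had another order. The sum of 14 Mueller glia genes of 18 ran over 48157 to 50764 in E168d2neo/d2neo, 45733 to 48187 in R90Wneo/Wneo, 45133 to 45816 in Crx-/- and 41342 to 43593 in WT, and Dbi and Slc1a3, the brightest probes, made up most of it. Single glial genes varied more within a genotype, such as Aqp4, the water channel of glial endfeet, by 2.36-fold in Crx-/-, and Car2 and Apoe by 2.37-fold and 2.12-fold in E168d2neo/d2neo. The probe of Glul, a defining Mueller glia gene, was not detected on any array. Lens crystallin and related genes (10 of 11) summed to 127857 on E168d2neo/d2neo replicate 1, 49572 on Crx-/- replicate 1, 26196 on R90Wneo/Wneo replicate 3 and 10326 on Crx-/- replicate 3, against 649 to 1810 on the other arrays. None of the lens-rich arrays had the lowest or the highest sum of all 12 arrays in the members, the epithelium list or the melanin list. Within their genotypes, R90Wneo/Wneo replicate 3 and Crx-/- replicate 3 had the highest sums of these lists, and Crx-/- replicate 1 had the lowest. E168d2neo/d2neo replicate 1 had the highest further epithelium sum of its genotype but the lowest member sum, and was the array with the lowest Rlbp1. That array was also 1 of the 2 dimmest, and the lowest for 16.4% and the highest for 21.1% of all probes detected on every array. Connective tissue genes (4 of 8 detected) were highest on WT replicate 1, at 399, against 81.5 to 149 elsewhere. The part of epithelium, lens or connective tissue carried into each pool was not tested, and in a whole-tissue sample fewer cells of a type and less RNA per cell cannot be told apart.

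**Figure D3:**
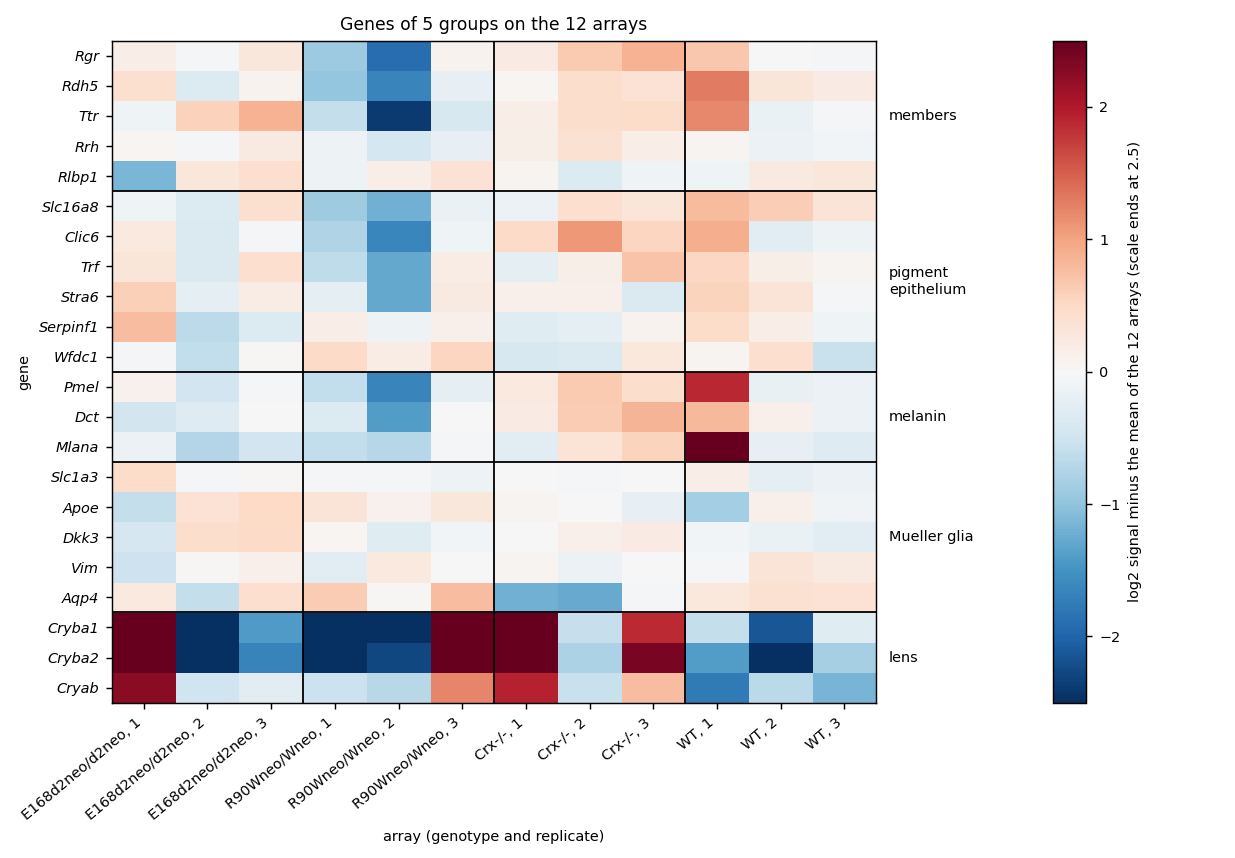
Rows are genes in 5 groups (5 members, 6 pigment epithelium, 3 melanin, and 5 Mueller glia and 3 lens genes chosen as examples), columns are the 12 arrays by genotype and replicate, and colour is log2 signal minus the mean of the 12 arrays, ending at 2.5. R90Wneo/Wneo replicate 2 is blue for Rgr, Rdh5, Ttr, Slc16a8, Clic6, Trf, Stra6, Pmel and Dct together, while Wfdc1 and Serpinf1 are near white there. WT replicate 1 is red for Rdh5, Ttr, Pmel and Mlana, and the lens genes are red on other arrays.

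Over the 12 arrays taken singly, the 5 members detected on every array moved together, except Rlbp1. Rpe65, Lrat and Best1, detected on fewer arrays or on none, were left out. Of 10 pairs among the 5 members, 6 had a permutation p of at most 0.05 for Pearson's r after Benjamini-Hochberg adjustment. Rdh5 and Rgr gave r = 0.90 (p = 0.0003, adjusted p = 0.0027, permutation test) and rho = 0.76 (adjusted p = 0.0177, permutation test). Rgr and Ttr gave r = 0.89 (adjusted p = 0.0027) and rho = 0.73 (adjusted p = 0.0249), and Rgr and Rrh gave r = 0.81 and rho = 0.81 (adjusted p = 0.0027 and 0.0177), all by permutation test. Rdh5 and Ttr gave r = 0.84 (adjusted p = 0.0034) but rho = 0.55 (adjusted p = 0.117). The 4 pairs with Rlbp1 gave r between -0.30 and -0.04, with adjusted p-values of 0.437 to 0.879.

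These relations rest largely on single pools. With the 2 arrays farthest from the median of the first gene left out, 0 of 10 pairs passed after adjustment, with Rdh5 and Rgr at r = 0.82 (adjusted p = 0.0524) and Rgr and Ttr at 0.56 (adjusted p = 0.231). Within genotypes, as deviations from the genotype means with 1296 relabellings, Rdh5 and Rgr gave r = 0.91 (exact permutation p = 0.0054, adjusted p = 0.0540) and Rgr and Ttr gave 0.83 (adjusted p = 0.0579), and again 0 of 10 pairs passed. Rdh5 and Rgr thus kept r above 0.8 in both reductions, though not their side of the threshold. Rdh5 and Rrh, the weakest of the 6 at r = 0.68 (adjusted p = 0.0278), had 0.46 (adjusted p = 0.220) with 1 scaling factor per array in place of quantile normalization.

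**Figure D4:**
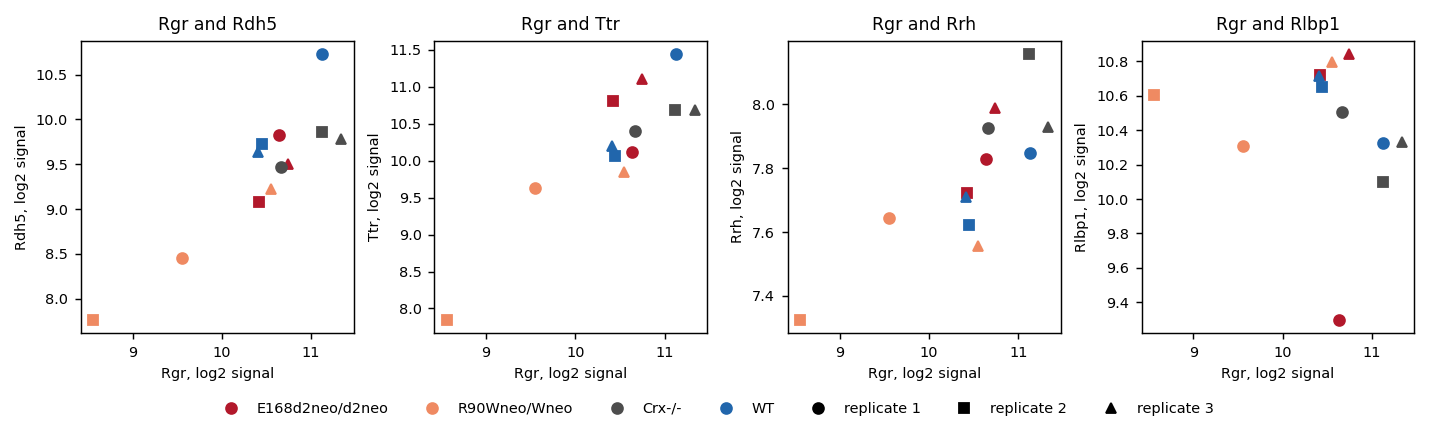
Each point is 1 array, with log2 signal of Rgr on the horizontal axis and of Rdh5, Ttr, Rrh or Rlbp1 on the vertical axis, colour for genotype and shape for replicate. Rdh5, Ttr and Rrh climb with Rgr, with R90Wneo/Wneo replicate 2 at the lower left, and Rlbp1 does not.

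Members were also set against summed lists, in 25 relations that were chosen after the pools had been seen to differ, and Rdh5 and Rgr passed with both the epithelium and the melanin list. Rdh5 followed the further pigment epithelium list at r = 0.89 (rho = 0.90, adjusted permutation p = 0.0022 and 0.0024) and the melanin list at r = 0.91 (rho = 0.79, adjusted permutation p = 0.0022 and 0.0262). Within genotypes these were 0.90 (adjusted exact permutation p = 0.0193) and 0.92 (adjusted exact permutation p = 0.0289). Rgr gave 0.81 and 0.87 with the 2 lists (adjusted permutation p = 0.0058 and 0.0022) and 0.82 and 0.84 within genotypes (adjusted exact permutation p = 0.0193 for each). Left without the 2 arrays farthest from its median, Rdh5 still gave 0.74 and 0.70, and Rgr 0.64 and 0.82. Ttr followed melanin genes at r = 0.83 (adjusted permutation p = 0.0109) but at 0.44 without the 2 farthest arrays, and with the further epithelium list it gave 0.65 (adjusted permutation p = 0.0698) and 0.06 without them. Rrh passed with neither list, at r = 0.54 for the further epithelium genes and 0.69 for the melanin genes (adjusted permutation p = 0.220 and 0.0632). No member passed with the Mueller glia, the connective tissue or the lens list. The Mueller glia sum was mostly Dbi and Slc1a3, so it cannot show whether a member followed the other glial genes.

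The probes most like each member were sought among 14360 probes with a gene symbol detected on at least 6 arrays, by Pearson's r over the 12 arrays and as a description. Rgr was followed most closely by Car12, a membrane carbonic anhydrase (r = 0.99), then by Clic6 (0.93), Dct, the dopachrome tautomerase of melanin synthesis (0.93 and 0.90 by different probes), and Trf, transferrin (0.92). Rdh5 was most like Rgr (0.94), Pmel (0.93 and 0.92), Slc16a8 (0.93) and Olfml1 (0.92). Ttr was most like Frg2f1 (0.93), Fam177a (0.91), Col8a1 (0.91), Rgr (0.90) and Dct (0.90).

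Rrh and Rlbp1 had neighbours of another kind. Rrh was most like Mrpl33 (0.92), Yaf2, Tmem181a and Rufy3 (0.90, 0.90 and 0.89) and Eola1 (0.87). Rlbp1 was most like Pelo (0.96), Cdk10 (0.95), Ddx1, Zcchc17 and Psme3ip1 (0.94, 0.93 and 0.93), which are general cellular genes in the main. All of these probes, like that of Rlbp1, were lowest on E168d2neo/d2neo replicate 1. That array was the lowest for 16.4% of all probes detected on every array. How far these r values rest on it was not tested. The lists for Rdh5, Rgr and Ttr hold pigment and epithelial genes, whereas those for Rrh and Rlbp1 hold no gene of the marker lists.

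Genes around the members in retinoid handling were read from fixed lists, by 1 probe a gene. Among 13 further pigment epithelium genes tested, 1 was called lower and 1 higher in a mutant. Krt18, a keratin of simple epithelia, had 4.0, 4.93 and 4.50 in E168d2neo/d2neo, 4.0, 4.96 and 5.6 in R90Wneo/Wneo, 6.06, 5.43 and 5.80 in Crx-/- and 7.53, 6.86 and 5.89 in WT. It was called lower in E168d2neo/d2neo (-2.28, SE 0.46, adjusted p = 0.0137), and R90Wneo/Wneo differed by -1.91 (adjusted p = 0.0802) and Crx-/- by -1.0 (adjusted p = 0.239). Rdh10, a retinol dehydrogenase that makes all-trans retinal, was called higher in Crx-/- (adjusted p = 0.0136) at 5.04, 5.40 and 4.94 against the floor on all 3 WT arrays, where it was not detected, so it was at least 1.08-fold higher. The list had medians of -0.22 for E168d2neo/d2neo, -0.46 for R90Wneo/Wneo and -0.30 for Crx-/-. Of 7 melanin genes 0 were called in any mutant, with Pmel at -1.35 and Dct at -0.85 in R90Wneo/Wneo (adjusted p = 0.325 and 0.389), and the list had medians of -0.53, -1.04 and -0.07 in the order E168d2neo/d2neo, R90Wneo/Wneo and Crx-/-. Of 14 Mueller glia genes Rdh10, which both lists hold, was the only call, and the medians were 0.22, 0.04 and 0.03 in the same order.

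The photoreceptor's own part of the cycle gave another picture in the same RNA. Of 8 tested genes, E168d2neo/d2neo had 3 called lower, R90Wneo/Wneo 2 and Crx-/- 3, and 0 were called higher. Rdh12, a retinal reductase of the inner segment, had 6.93, 5.95 and 6.54 in E168d2neo/d2neo, 11.03, 11.71 and 12.03 in R90Wneo/Wneo, 8.54, 8.61 and 9.40 in Crx-/- and 13.29, 13.25 and 13.27 in WT. These are differences of -6.80, -1.68 and -4.42 (adjusted p = 6.84e-07, 0.0283 and 4.36e-05), and no mutant array reached the WT arrays. Abca4, the transporter that clears retinal from the discs, differed by -1.87, -1.45 and -2.05 (adjusted p = 0.000461, 0.00956 and 0.000309), in the order E168d2neo/d2neo, R90Wneo/Wneo and Crx-/-. Dhrs3, another reductase of retinal, had 4.0, 4.0 and 4.56 in E168d2neo/d2neo, 5.42, 5.54 and 5.06 in R90Wneo/Wneo, 4.0, 4.51 and 4.18 in Crx-/- and 4.70, 5.91 and 6.58 in WT. It was called lower in E168d2neo/d2neo (-1.54, adjusted p = 0.0394), and for Crx-/-, where it was not detected, it was at least 1.99-fold lower (adjusted p = 0.0429). The median of the list was -0.52 for E168d2neo/d2neo, -0.26 for R90Wneo/Wneo and -0.39 for Crx-/-, against 0.01 over all tested probes.

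Rdh12 thus separated the genotypes in every pool, with R90Wneo/Wneo nearest to WT, while Rdh5 and Rgr had their lowest pools in R90Wneo/Wneo. Among 12 genes of retinoid uptake, binding, storage and turnover, the only call was Rdh10 in Crx-/-. Lists of endothelium (8 genes), lens (10) and connective tissue (4) had 0 calls in every comparison with WT. Of the brightest in each, Cldn5 and Egfl7 of the endothelium differed in E168d2neo/d2neo by -0.70 and -0.39 (adjusted p = 0.0512 and 0.219), and Ogn and Dcn of connective tissue by 0.63 and -0.98 (adjusted p = 0.484 and 0.535). The lens genes Cryba1 and Cryba2 had standard errors of 2.31 and 2.21, since single pools held most of their signal. Of 6 ciliary and iris genes, Aqp1, a water channel, had 6.29, 4.76 and 5.38 in E168d2neo/d2neo, 6.04, 6.13 and 7.43 in R90Wneo/Wneo, 6.63, 5.49 and 6.34 in Crx-/- and 8.85, 8.72 and 8.5 in WT. It was called lower in each mutant, by -3.21 for E168d2neo/d2neo (adjusted p = 0.00156), by -2.16 for R90Wneo/Wneo (adjusted p = 0.0452) and by -2.53 for Crx-/- (adjusted p = 0.00688). No other gene of that list was called against WT, and the list had medians of -0.03, 0.38 and 0.09 in the same order.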

How the data were processed

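Pools of retinal RNA were labelled as biotin cRNA and hybridized to Illumina MouseWG-6 v2 bead arrays. The authors deposited, per the file headers and their methods, background-subtracted signal intensity for each probe (GenomeStudio, version not given in the sources used here) with a detection p-value from GenomeStudio for each probe. A second deposited table holds the same intensity values times 1 factor per array (0.753 to 1.68) and served as an alternative. No column holds the authors' own comparisons.

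From these, signals were quantile-normalized over the 12 arrays, floored at 16 and taken to log2. Probes with a detection p under 0.05 on at least 1 array (24311 of 45281) were fitted with limma 3.58.1 in R 4.3.3 (lmFit, eBayes), with genotype as the only term and 6 comparisons. P-values were Benjamini-Hochberg adjusted over all tested probes of a comparison, and calls needed an adjusted p no higher than 0.05 with a change of at least 2-fold. In place of the study's SAM, limma was the main test, and SAM was an alternative. Of all probes 34885 had 1 gene, 18 several and 10378 none, with symbols brought up to date through Entrez identifiers. Where a gene had several probes, the one with the highest mean stood for it in counts of genes and correlations. A probe not detected on any array of a group has only a bound there, given as at least N-fold against the lowest detected signal. Correlations used 100000 resamples (Python 3.11.15, scipy 1.17.1), two-sided. The procedure was tested on simulated data with known changes.

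The members and the lists were chosen with earlier results of these data known. Genes named were all members, up to 4 called genes of each list (otherwise the 2 of highest mean), and the 5 probes most like each member. Others (Stra6, Wfdc1, Serpinf1, Mlana, Tyr, Gpr143, Glul, Crx) were named after their values were seen. The number of arrays, 3 a genotype, limits precision: an exact two-sided permutation test of 3 against 3 cannot go below p = 0.1. No scan or slide is named in the headers, so no batch was fitted. Replicate numbers come from the labels, which do not say what they mark. Over deviations from genotype means, all 3 same-numbered pairs of E168d2neo/d2neo and WT correlated above 0.1 (r = 0.40, 0.22 and 0.16), which did not hold for the other comparisons. Alternatives were the background correction, the normalization, the filter, a replicate block, the arrays in the fit and each array left out in turn. Labels do not say whether the pools came from separate litters.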

Additional observations from a re-analysis of the deposited data

How the results depend on the processing

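The count of called member probes was 0 in 130 of 132 counts under alternatives. In R90Wneo/Wneo against WT it was 1 (Rdh5) with normexp background correction and between 0 and 1 over the fits that leave out 1 array each, reaching 1 without R90Wneo/Wneo replicate 3. Over all its alternatives the Rdh5 difference ran between -1.92 and -0.84 with adjusted p between 0.0393 and 0.337. With R90Wneo/Wneo replicate 2 and WT replicate 1 both left out, 0 members were called in every comparison. Of 1056 member differences under alternatives, 1023 kept their sign and side of the threshold, 2 passed it (both Rdh5) and 31 changed sign, in 13 of 48 results, none of them called and none with a size over 0.37. The count of correlated pairs, 6 of 10, was 0 without the 2 farthest arrays, 0 over deviations from genotype means and 5 with 1 scaling factor per array. The labels number the replicates 1 to 3 in each genotype, and 8 of 18 same-numbered pairs correlated above 0.1 (r between -0.10 and 0.40), all 3 of them only for E168d2neo/d2neo with WT. The main fits paired no pools, and the replicate block was an alternative applied to every comparison. With a replicate block 0 members were called in each comparison, with Rdh5 in R90Wneo/Wneo against WT at -1.55 (adjusted p = 0.10). Calls over all probes numbered 921, 238 and 946 in E168d2neo/d2neo, R90Wneo/Wneo and Crx-/- against WT, and 890, 226 and 929 with the replicate block. With only the compared genotypes in the fit they were 504, 50 and 789, and with SAM 774, 90 and 1085. Calls in R90Wneo/Wneo against WT were 138 with no filter and 104 without both R90Wneo/Wneo replicate 2 and WT replicate 1. Between mutants they were 129 in E168d2neo/d2neo against Crx-/-, 92 in R90Wneo/Wneo against Crx-/- and 127 in E168d2neo/d2neo against R90Wneo/Wneo, with 6, 18 and 31 in fits of only the compared genotypes, 38, 24 and 79 by SAM, and 77, 30 and 85 with no filter. A floor of 8 gave 61 in R90Wneo/Wneo against Crx-/-, and the pair left out together gave 18 there and 66 in E168d2neo/d2neo against R90Wneo/Wneo. Leaving out 1 array gave 702 to 1432, 89 to 293 and 665 to 1096 against WT, and 56 to 247, 9 to 138 and 64 to 209 between mutants, in the orders given. Rpe65, Lrat and Best1 lay at or under the detection limit, so no difference in them could be seen at this signal.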
